A study of Mus musculus with 8 samples.

Results

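Genes of sterol and fatty acid synthesis were followed in mouse bone marrow progenitors in which Ring1b was present or deleted. Ring1b, encoded by Rnf2, is the ubiquitin ligase subunit of the Polycomb complex PRC1, which places a repressive mark on histone H2A. The genes were taken from a list of 29 enzymes and regulators of the pathway, matched by symbol to the rows of the deposited tables. A row was present for 28 of the 29, and 25 had a transcript with a mean normalised read count of at least 20 over the 8 libraries. These 25 genes were tested among 10599 transcripts that passed the same minimum, of 19353 transcripts in all. Hmgcs1 was not analysed here, and Mvd, Scap and Insig2 stayed under the minimum.

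Per the labels, every library came from lineage-negative bone marrow cells of C57BL/6 mice, obtained with a progenitor enrichment kit. All groups lacked Ring1a and Cdkn2a (Ring1a-/- Cdkn2a-/-), so the control cells also carried both deletions. The 4 contexts were non-transduced cells (NT) and cells transduced with HOXA9, a homeobox gene, or with PML-RARa or MLL-AF9, which are leukaemia fusion genes. In each context 1 library was labelled Ring1b WT (control) and 1 was labelled Ring1b KO, the latter from cells treated with OHT (4-hydroxytamoxifen), and the treatment with ethanol or OHT lasted 72 h. Each context and genotype had 1 library, so the only replicates of the OHT effect were the 4 contexts, and an effect of OHT and an effect of the lost Ring1b cannot be told apart. The number of animals or cultures behind a library and the promoter driving the introduced genes were not stated (not given in the sources used here).

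Cells make cholesterol from acetyl-CoA through the mevalonate pathway, whose early enzymes build the isoprenoid farnesyl pyrophosphate. Squalene synthase and the later enzymes turn it into lanosterol and then cholesterol, while fatty acids are built from the same acetyl-CoA by Acaca and Fasn. Both branches are switched on by the SREBP transcription factors (Srebf1 and Srebf2), which Scap carries out of the endoplasmic reticulum when sterols are low and which the Insig proteins hold back when sterols are high. Dividing blood progenitors need both products for new membranes.

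Recovered reads ranged from 4226751 to 6998223 per library, and in all 4 pairs the OHT library had the smaller size factor. Rnf2 itself did not pass the test: its normalised read count, in the order NT, HOXA9, PML-RARa and MLL-AF9, was 666, 896, 990 and 770 in the control libraries and 802, 856, 771 and 767 in the OHT libraries (mean log2 ratio -0.04, adjusted p = 0.852, limma). Counts over a whole transcript do not show whether part of the gene was deleted, so this does not check the labels, and genotypes are given here as labelled. Reads of Ring1 (Ring1a) were present in every library, with normalised counts from 109 to 191 in the controls and from 23.8 to 77.8 after OHT (mean log2 ratio -1.81, adjusted p = 0.0402, limma), although all groups were labelled Ring1a-/-. Of 15 stem and progenitor genes, 12 were measured at the minimum, and the summed normalised read count of the 13 with a row ran from 5425 to 9384 in the controls and from 5285 to 10765 after OHT. In that list Gata2 and Cebpa had the highest means, 2454 and 1513, with log2 ratios of 0.24 (adjusted p = 0.470) and -0.72 (adjusted p = 0.0402) by limma, while the transcript listed for Kit had a mean of 13.5.

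After OHT, 7 of the 25 genes fell and none rose. They were Fdps, Scd1, Acat2, Tm7sf2, Dhcr7, Scd2 and Sc5d (limma on log2(value + 1), context as a block, Benjamini-Hochberg over all tested transcripts, adjusted p under 0.05). The background for lower calls was 7.48% of all tested transcripts, and for higher calls it was 6.4%, which set beside the members gives 28% and 0%. The median log2 ratio of OHT over control was -0.48 over the 25 genes and -0.03 over all tested transcripts. The mean ratio was below 0 for 23 of the 25 genes, against 52.5% of all tested transcripts, and 21 of the 25 were lower in the OHT library of all 4 contexts, against 26.5%. In 10 genes all OHT values lay under all control values, a pattern seen in 12.6% of all tested transcripts. At an unadjusted limma p under 0.05 stood 19 of the 25 genes (76%), against 38.0% of all tested transcripts. The 7 calls depended on having all 4 pairs: without any 1 of them limma called 0 of the 25, and edgeR called 2 without NT (Acat2 and Fdps), 2 without HOXA9 (Acat2 and Scd1), 0 without PML-RARa and 0 without MLL-AF9, where it called 170, 328, 0 and 0 of all tested transcripts lower. With TMM scaling or with the ratios centred on the median transcript, 3 of the 7 kept an adjusted p under 0.05 (Acat2, Fdps and Scd1), against 6.85% and 6.56% of all tested transcripts called lower. Of all limma calls, 46.1% were higher, against 57.1% with edgeR, 56.5% with DESeq2 and 58.5% without the minimum.

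**Figure D1:**
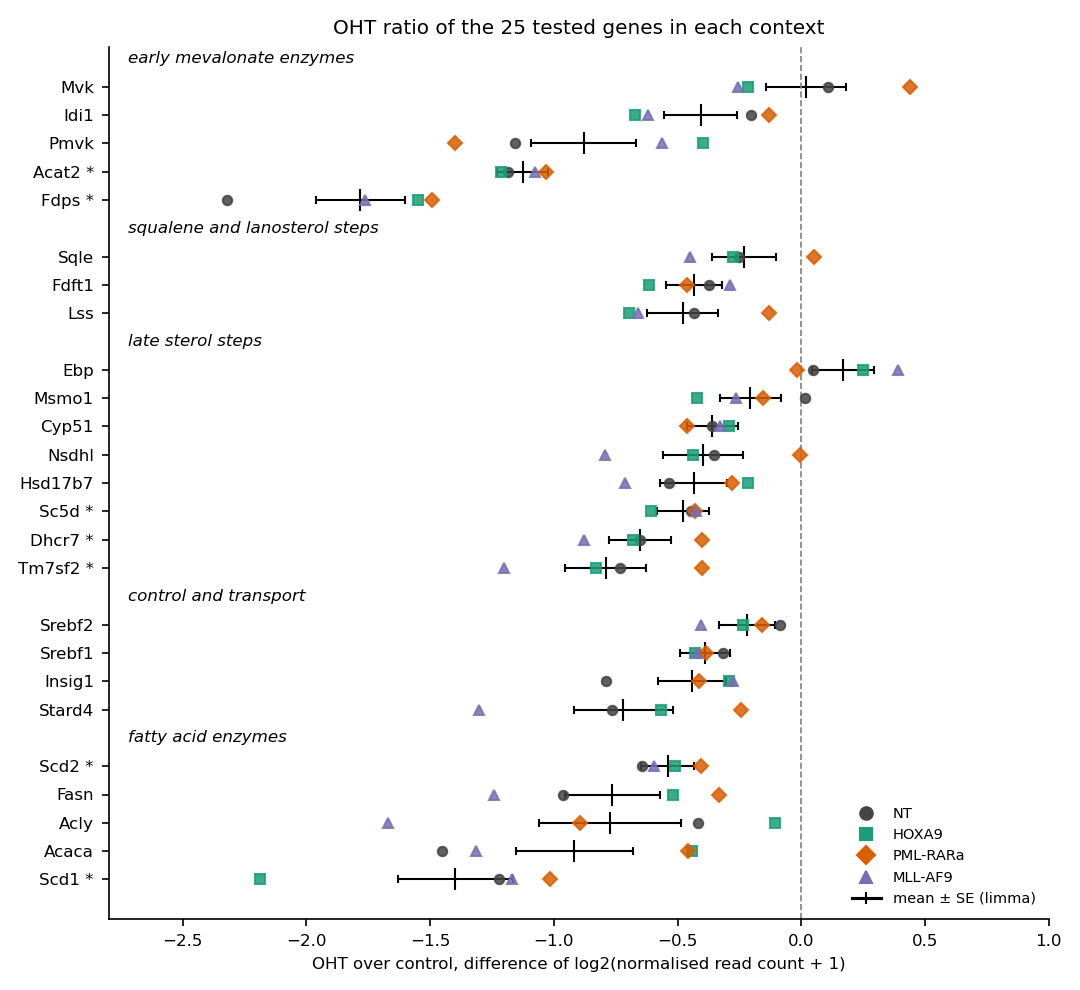
Each row is 1 of the 25 tested genes, grouped by role, and the horizontal axis is the OHT over control difference of log2(normalised read count + 1). Symbols are the 4 contexts, black ticks with bars are the limma mean ± SE, and an asterisk marks an adjusted p under 0.05; symbols lie left of 0 in all 4 contexts for 21 genes, Fdps is farthest left at a mean of -1.78, and Mvk and Ebp lie around 0.

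Other lists measured in the same libraries moved at the same time. Their counts stand beside the same background, 7.48% of all tested transcripts called lower and 6.4% called higher. Of 17 tested proliferation genes, 12 fell, and the summed normalised read count of the 20 genes with a row ran from 24000 to 32985 in the controls and from 10684 to 18340 after OHT, with no overlap. Of 13 tested macrophage and monocyte genes, 11 rose, and the summed count of the 15 genes with a row ran from 1355 to 3301 in the controls and from 7392 to 20243 after OHT. The defining genes Csf1r (log2 ratio 2.34 ± 0.41 SE, adjusted p = 0.0385) and Mrc1 (3.64 ± 0.67, adjusted p = 0.0402) were among them by limma. Of 12 tested stem and progenitor genes, 1 rose (Cd48) and 3 fell (Myb, Cebpa and Erg), and of 13 neutrophil genes none passed the test. Of 12 mast cell, basophil and eosinophil genes 2 fell, the eosinophil genes Epx and Prg3, while the median log2 ratio of that list was 0.57. The erythroid and megakaryocyte, lymphoid and stromal lists had 6, 2 and 3 tested genes, of which 1 rose, 1 fell and 1 rose. The part of proliferation or of a different cell mixture in the values of the synthesis genes was not tested. In bulk libraries, fewer cells of a type and less RNA per cell cannot be told apart.

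To show what lies in front of the genes that moved together, RefSeq promoter windows (build GRCm38.p6, 250 bases before to 50 after a start) were matched by symbol to 23 of the 29 genes. Fdft1, Fdps, Scd1, Scd2, Sqle and Stard4 had no entry. The 200 bases before the start are given for the 4 genes that fell and had a window, and for Mvk and Ebp, the only genes with a mean ratio above 0. Each is given 5′ to 3′ on the gene's strand, and capitals mark the matches to 4 motifs searched on both strands. These were the GC box with the letters GGGCGG, the E-box with the letters CACGTG, the SREBP element with the letters TCACNCCAC, and the CCAAT box, named after its letters.
Acat2: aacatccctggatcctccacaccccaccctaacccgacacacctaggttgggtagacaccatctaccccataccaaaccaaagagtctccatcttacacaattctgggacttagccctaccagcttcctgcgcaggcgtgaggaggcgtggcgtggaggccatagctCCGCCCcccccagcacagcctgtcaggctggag
Tm7sf2: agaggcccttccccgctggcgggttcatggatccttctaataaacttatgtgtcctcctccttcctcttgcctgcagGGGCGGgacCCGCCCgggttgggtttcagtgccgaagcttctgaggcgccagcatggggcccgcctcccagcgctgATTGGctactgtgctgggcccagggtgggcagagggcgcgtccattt
Sc5d: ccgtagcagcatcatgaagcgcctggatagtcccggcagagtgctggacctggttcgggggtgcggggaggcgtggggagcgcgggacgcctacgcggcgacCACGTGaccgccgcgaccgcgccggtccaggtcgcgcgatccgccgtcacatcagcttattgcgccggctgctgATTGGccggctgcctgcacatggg
Dhcr7: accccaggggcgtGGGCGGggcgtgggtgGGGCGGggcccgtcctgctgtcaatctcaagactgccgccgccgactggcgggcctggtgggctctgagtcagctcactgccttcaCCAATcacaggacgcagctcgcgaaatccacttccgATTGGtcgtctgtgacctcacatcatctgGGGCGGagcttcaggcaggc
Mvk: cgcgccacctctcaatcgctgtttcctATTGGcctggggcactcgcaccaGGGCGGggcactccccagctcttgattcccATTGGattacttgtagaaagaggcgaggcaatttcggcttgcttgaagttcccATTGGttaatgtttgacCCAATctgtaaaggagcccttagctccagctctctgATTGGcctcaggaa
Ebp: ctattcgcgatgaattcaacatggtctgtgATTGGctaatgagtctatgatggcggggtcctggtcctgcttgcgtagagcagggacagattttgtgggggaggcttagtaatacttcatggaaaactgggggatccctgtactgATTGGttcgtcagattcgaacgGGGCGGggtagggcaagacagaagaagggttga

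Acat2 was taken from chr17:12960726-12960925 (minus strand), Tm7sf2 from chr19:6067851-6068050 (minus), Sc5d from chr9:42264301-42264500 (minus) and Dhcr7 from chr7:143830014-143830213 (plus, 1 of its 3 windows, chosen for the most kinds of motif). Mvk was taken from chr5:114444069-114444268 (plus) and Ebp from chrX:8193513-8193712 (minus). Among the printed stretches, Mvk held 5 CCAAT boxes and 1 GC box, Ebp held 2 and 1, Dhcr7 held 2 and 3, Tm7sf2 held 1 and 2, Sc5d held 1 and 0, and Acat2 held 0 and 1. Sc5d also held an E-box, which its window carries once. Over whole 300-base windows, the CCAAT box was found in 20 of the 23 genes (87.0%) against 41.1% of all 27025 genes with a window, and the GC box was also found in 20 of 23 (87.0%) against 38.2%. The E-box was found in 5 of 23 (21.7%), namely Dhcr7, Hsd17b7, Insig1, Sc5d and Scap, against 8.09%, and the SREBP element in 1 of 23 (4.35%), Hmgcs1, against 1.44%. Hmgcs1 has no read counts here. Only the form TCACNCCAC was searched, so other forms, or sites outside the windows, were not counted. A gene without a match is not shown to lack an SREBP site. A gene counted if any of its windows matched. By window, the CCAAT box was in 21 of 31 against 37.4%, and the GC box in 24 of 31 against 35.7%. The background holds genes with and without reads in these cells, so a trait of expressed genes at large is not set apart. The motifs share no bases with each other in these stretches. Both kinds of box were present in genes that fell and in the pair with mean ratios above 0, and a match describes letters only.

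The early mevalonate enzymes held the member with the lowest ratio. Of 7 listed genes 5 were tested, 2 fell and none rose, with a median log2 ratio of -0.88. Fdps makes farnesyl pyrophosphate, the branch point between sterols, prenyl groups and dolichol. Its normalised read count, in the order NT, HOXA9, PML-RARa and MLL-AF9, was 118, 124, 102 and 85.8 in the controls and 22.9, 41.6, 35.7 and 24.6 after OHT. The groups did not overlap, and the lowest control value was above the highest OHT value in every pairing of contexts. The mean log2 ratio was -1.78 ± 0.18 (SE, n = 4 pairs, adjusted p = 0.0352, limma), a fold of 0.291. Fdps was measured on few reads after OHT, 22, 46, 30 and 18, and the exact 95% Poisson interval of the 18 reads was 10.7 to 28.4, which covers counting error only. Its row is 1 of 2 RefSeq transcripts of the gene, so reads assigned to the other transcript are not in it.

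Acat2, the cytosolic thiolase that condenses acetyl-CoA at the head of the pathway, had 576, 446, 521 and 462 in the controls and 252, 192, 255 and 218 after OHT, in the same order of contexts. The 4 control values lay well above the 4 OHT values, and the ratios of the contexts lay close together, between -1.21 and -1.03. The mean log2 ratio was -1.13 ± 0.10 (SE, adjusted p = 0.0352, limma), a fold of 0.458. Acat2 was called by limma with all 4 pairs, by edgeR and by DESeq2, and its adjusted p in limma without 1 pair ran from 0.0609 to 0.102.

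The remaining enzymes of this stretch did not pass the test. Pmvk, phosphomevalonate kinase, had 113, 109, 127 and 95.3 in the controls and 49.9, 82.3, 47.6 and 64.1 after OHT, without overlap (-0.88 ± 0.21, adjusted p = 0.0576, limma). A second Pmvk transcript under the minimum, with a mean of 14.6, was also lower in each OHT library. Idi1, which isomerises isopentenyl pyrophosphate, had a mean log2 ratio of -0.41 (adjusted p = 0.119, limma). Mvk, mevalonate kinase, had 578, 388, 408 and 396 in the controls and 623, 334, 553 and 332 after OHT, so it was higher in NT and PML-RARa and lower in HOXA9 and MLL-AF9 (0.02 ± 0.16, adjusted p = 0.941). Mvd, which decarboxylates mevalonate pyrophosphate, had 1 row with a mean of 11.3 and was not tested. That row is a non-coding transcript, 1 of 2 RefSeq transcripts of the gene. Reads of the other transcript are not in it, so the level of the Mvd enzyme mRNA is not given.

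The 3 enzymes from farnesyl pyrophosphate to lanosterol were lower on average but none passed the test (median -0.44). Fdft1, squalene synthase, had a mean log2 ratio of -0.44 ± 0.11 (SE, adjusted p = 0.0644, limma), with no overlap between groups. Lss, lanosterol synthase, had -0.48 ± 0.14 (adjusted p = 0.0808). Sqle, squalene epoxidase and a slow step of the pathway, had -0.23 ± 0.13 (adjusted p = 0.248) and was slightly higher after OHT in PML-RARa, at 1565 against 1510 in its control.

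Of the 8 late sterol enzymes, all tested, 3 fell and none rose, with a median of -0.42. Tm7sf2, a sterol C14 reductase, had 269.7, 370, 256 and 388 in the controls and 162, 208, 194 and 168 after OHT. All control values were above all OHT values, and the gap was widest in MLL-AF9 (-1.20) and narrowest in PML-RARa (-0.40). The mean log2 ratio was -0.79 ± 0.16 (SE, adjusted p = 0.0460, limma). Lbr, which carries the same reductase activity in the nuclear envelope, had -0.54 ± 0.13 and did not pass the test (adjusted p = 0.0561).

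Dhcr7, which performs the final reduction to cholesterol, had 1011, 994, 898 and 989 in the controls and 643, 620, 680 and 538 after OHT. The control values stood close together and above all OHT values. The mean log2 ratio was -0.65 ± 0.13 (SE, adjusted p = 0.0423, limma), a fold of 0.636. Sc5d, which acts just before it, had 939, 871, 1098 and 809 in the controls and 689, 571, 815 and 602 after OHT. The Sc5d groups overlapped, since the MLL-AF9 control was under the OHT library of PML-RARa, while each pair differed by a similar amount. Its mean log2 ratio was -0.48 ± 0.10 with an adjusted p of 0.0495 by limma, just under the threshold, and without the most densely read transcripts the adjusted p was 0.0654.

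**Figure D2:**
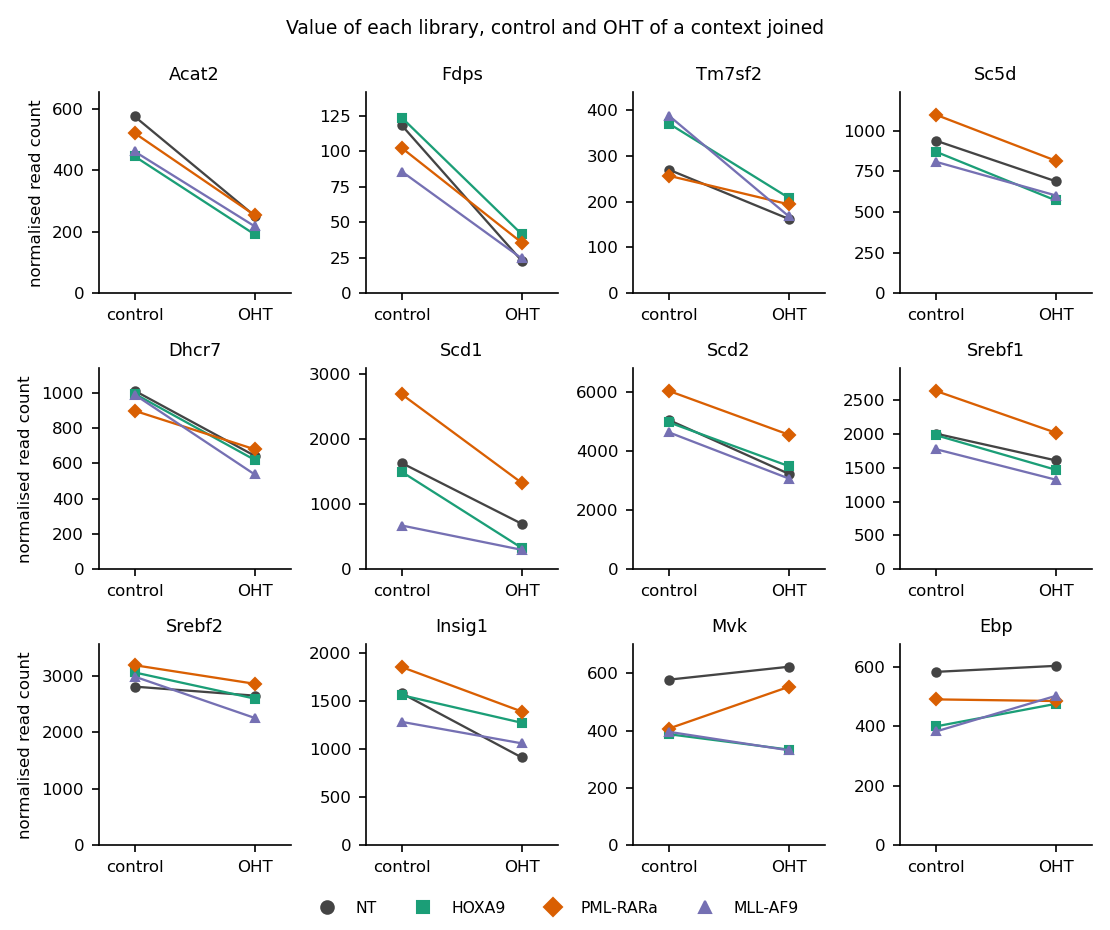
Normalised read count (vertical axis, starting at 0) of 12 genes in the 8 libraries, with the control and OHT library of each context joined by a line. All lines slope down for Acat2, Fdps, Tm7sf2, Sc5d, Dhcr7, Scd1, Scd2, Srebf1, Srebf2 and Insig1, while those of Mvk and Ebp go both ways.

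The other late enzymes did not pass the test. Cyp51, the lanosterol demethylase, had a mean log2 ratio of -0.36 (adjusted p = 0.0751, limma) and was lower in each pair, with ratios from -0.46 to -0.29. Hsd17b7 and Nsdhl, which act in removing the C4 methyl groups, had -0.44 and -0.40, and Msmo1, the C4 methyl oxidase, had -0.21. Hsd17b7 values did not overlap between the groups. Ebp, the sterol isomerase, had 582, 399, 490 and 382 in the controls and 603, 475, 484 and 502 after OHT, and was higher after OHT in 3 of 4 contexts (0.17 ± 0.12, adjusted p = 0.362). With Mvk it was 1 of 2 tested genes whose mean ratio was not below 0.

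None of the 4 tested regulators passed the test, although each was lower in all 4 OHT libraries. Srebf1, the SREBP gene tied mainly to fatty acid synthesis, had 2007, 1984, 2639 and 1777 in the controls and 1610.5, 1471, 2020 and 1325 after OHT. Its ratios were alike in size, from -0.43 to -0.32, with a mean of -0.39 ± 0.10 (SE, adjusted p = 0.0641, limma). Srebf2, the SREBP gene tied mainly to sterol synthesis, had 2810, 3062, 3190 and 2988 in the controls and 2651, 2599, 2861 and 2256 after OHT, which overlapped (-0.22 ± 0.11, adjusted p = 0.218). Within each context the Srebf1 ratio was below that of Srebf2, with a mean difference of -0.17 (SD 0.10, n = 4). The difference was -0.23 in NT, -0.19 in HOXA9 and -0.23 in PML-RARa, but only -0.02 in MLL-AF9. The exact two-sided sign-flip test gave p = 0.125, the smallest value that 4 pairs allow.

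Insig1, which holds SREBP back and is itself an SREBP target, had 1580, 1561, 1853 and 1283 in the controls and 913, 1274, 1391 and 1060 after OHT. The fitted difference was widest in NT (-0.79) and between -0.41 and -0.28 in the other contexts, with a mean of -0.44 (adjusted p = 0.0870, limma). Stard4, a carrier of sterols between membranes, had 1234, 1199, 1099 and 1125 in the controls and 725, 810, 928 and 456 after OHT. Its control values were tight and above every OHT value, but the ratios spread from -1.30 in MLL-AF9 to -0.24 in PML-RARa (mean -0.72 ± 0.20, adjusted p = 0.0725). Scap and Insig2 were near the lowest entries of the tables: the better covered of the Scap rows had 5.79, 4.98, 5.74 and 7.41 in the controls and 3.12, 9.95, 5.95 and 2.73 after OHT. Insig2 had 7.45, 7.47, 4.78 and 2.12 in the controls and 6.23, 6.33, 7.14 and 5.46 after OHT, and neither gene was tested. The Insig2 row is 1 of 5 RefSeq transcripts of the gene. How reads shared between the 2 Scap rows were counted was not stated, so these values may not give the full level of either gene.

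All 5 fatty acid enzymes were lower after OHT in all 4 contexts, and 2 of them fell, with a median log2 ratio of -0.77. Scd1, a stearoyl-CoA desaturase that makes monounsaturated fatty acids, had 1628, 1493, 2682 and 670 in the controls and 697, 327, 1325 and 297 after OHT. Each OHT library was far below its own control, yet the groups overlapped, since the MLL-AF9 control was under the OHT libraries of NT and PML-RARa. The mean log2 ratio was -1.40 ± 0.23 (SE, adjusted p = 0.0366, limma), a fold of 0.379, and without a term for context it did not pass (adjusted p = 0.160). Scd2, the related desaturase, had 5037, 4959, 6020 and 4621 in the controls and 3220, 3479, 4542 and 3061 after OHT, without overlap. Its mean log2 ratio was -0.54 ± 0.11 (adjusted p = 0.0438, limma).

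The Scd1 ratio was below the Scd2 ratio in 4 of 4 contexts, with a mean difference of -0.86 (SD 0.55) and the widest, -1.68, in HOXA9. The exact two-sided sign-flip test again gave its smallest possible p, 0.125. As reads, Scd1 made up from 0.145 to 0.446 of the Scd2 count in the controls and from 0.0939 to 0.292 after OHT. Scd1 and Scd2 are related genes, and how any reads shared between them were counted was not stated (not given in the sources used here).

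Acaca, acetyl-CoA carboxylase and the committed step of fatty acid synthesis, had 1667, 1302, 1291 and 1207 in the controls and 609, 958, 939 and 484 after OHT, without overlap. The difference was large in NT (-1.45) and MLL-AF9 (-1.32) and smaller in HOXA9 (-0.44) and PML-RARa (-0.46), and the mean of -0.92 ± 0.24 did not pass the test (adjusted p = 0.0631, limma). Fasn, fatty acid synthase, had 4789, 4640, 5176 and 3848 in the controls and 2459, 3238, 4116 and 1626 after OHT, with the PML-RARa OHT library above the MLL-AF9 control. Like Acaca it was lowest against control in MLL-AF9 (-1.24) and NT (-0.96), with a mean of -0.76 ± 0.19 (adjusted p = 0.0608, limma). Both were called lower by edgeR (Acaca adjusted p = 0.0479, Fasn adjusted p = 0.0466). Acly, which supplies cytosolic acetyl-CoA, was the gene just above the minimum: its listed transcript, 1 of 2, had 36.4, 55.6, 58.4 and 41.3 in the controls and 27.0, 51.6, 30.9 and 12.3 after OHT (-0.77 ± 0.29, adjusted p = 0.123). The last of these values rested on 9 reads.

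Summed over the 25 genes, the OHT to control ratio of normalised read counts was lowest in MLL-AF9 at 0.642, followed by NT at 0.690, HOXA9 at 0.707 and PML-RARa at 0.790. The genes took 0.608%, 0.573%, 0.663% and 0.514% of the reads in the controls and 0.410%, 0.372%, 0.516% and 0.324% after OHT, so the share was lower in each pair while the PML-RARa OHT library overlapped the MLL-AF9 control. Among roles the fatty acid enzymes had the lowest summed ratio in 3 contexts, at 0.533 in NT, 0.719 in PML-RARa and 0.528 in MLL-AF9. In HOXA9 the early mevalonate enzymes were lowest at 0.620, with the fatty acid enzymes at 0.647. These sums are led by the genes with most reads, such as Scd2 and Fasn.

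**Figure D3:**
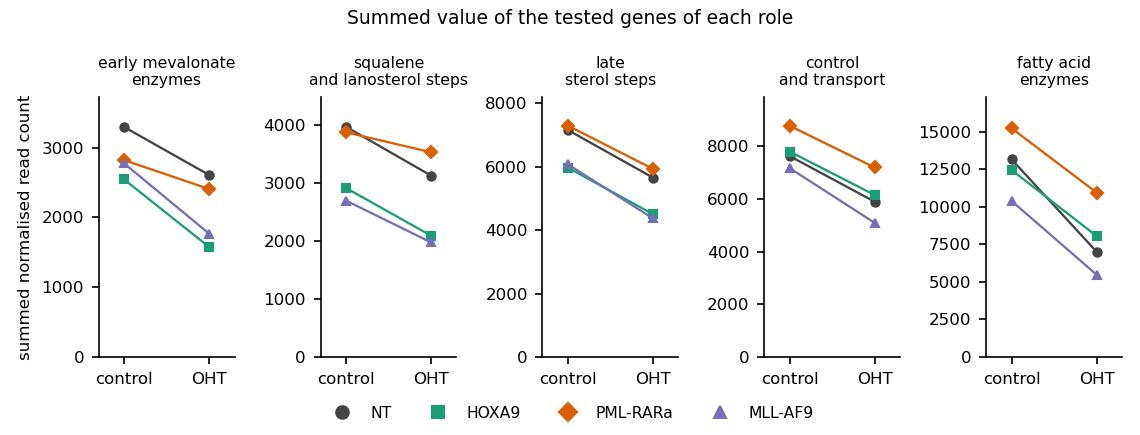
Summed normalised read count of the tested genes of each role (vertical axis, starting at 0) in the 8 libraries, with control and OHT of a context joined. Every line slopes down, and the fatty acid enzymes go from between 10387 and 15227 in the controls to between 5482 and 10952 after OHT.

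Within single pairs, which have no replicate, counts were made of genes whose OHT value was 0.5 of control or less. There were 5 such genes in NT (Acat2, Pmvk, Fdps, Acaca and Scd1) against a background of 7.93% of all tested transcripts, 3 in HOXA9 (Acat2, Fdps and Scd1) against 5.14%, and 4 in PML-RARa (Acat2, Pmvk, Fdps and Scd1) against 12.4%. In MLL-AF9 there were 8 (Acat2, Fdps, Tm7sf2, Stard4, Acly, Acaca, Fasn and Scd1) against 13.9%. The members' shares were 20%, 12%, 16% and 32% in that order of contexts, so the count in PML-RARa was close to its background. No gene was 2-fold or more higher after OHT in any context. Acat2, Fdps and Scd1 were at 0.5 or less in all 4 pairs.

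The cells carrying an introduced gene were also fitted by themselves, which in limma and edgeR is the fit without the NT pair given above. In the 3 transduced contexts limma called none of the 25 genes, against 0.0189% of all tested transcripts called lower and 0.226% called higher. At an unadjusted p under 0.05 stood 12 of the 25 genes (48%), against 30.2% of all tested transcripts. Acat2 had a log2 ratio of -1.11 ± 0.14 (SE, adjusted p = 0.0705, limma), Fdps had -1.60 ± 0.15 (adjusted p = 0.0598) and Scd1 had -1.46 ± 0.30 (adjusted p = 0.0912). The sizes lay near those over 4 contexts, but the 3 ratios used here are also part of that fit, so the likeness is no separate result. The other tools called more: edgeR called 2 genes lower (Acat2 and Fdps, 8%) against 1.60% of all tested transcripts, and DESeq2 called 6 (24%) against 7.22%.

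Whether NT cells responded differently from the transduced cells was tested on the ratios themselves. No member passed (0 of 25), and the background was 0.0% of all tested transcripts in limma. With edgeR and DESeq2 0 members were called too, against 0% and 0.604% of all tested transcripts. At an unadjusted limma p under 0.05 were 0 of the 25 and 573 of all tested transcripts (5.41%), so the counts of members stood near the background. The widest differences, NT minus transduced, were -0.72 ± 0.30 for Fdps (SE, adjusted p = 0.957), -0.71 ± 0.49 for Acaca and 0.47 ± 0.70 for Acly. With 1 ratio in NT and 3 in the other contexts, these errors are wide, and a like response is not shown by the missing calls.

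For level differences between contexts, with OHT as a term, limma called none of the 25 genes for a difference between contexts (0% against 2.19% of all tested transcripts), while 4 had an unadjusted p under 0.05 (Lss, Cyp51, Srebf1 and Scd1), 16% against 19.5%. Lss had 1411, 847, 1339 and 655 in the controls and 1045, 522, 1222 and 415 after OHT, so NT and PML-RARa were high and HOXA9 and MLL-AF9 low in both treatments. The MLL-AF9 minus NT difference of its log2 level was -1.22 ± 0.20 (SE; adjusted p over the 4 contexts = 0.0869, limma). NT and PML-RARa were also the higher contexts for Cyp51, with 1883, 1226, 2043 and 1231 in the controls and 1468, 1001, 1483 and 981 after OHT (adjusted p = 0.142). Scd1 spanned 2.08 on the log2 scale between its highest context, PML-RARa, and its lowest, MLL-AF9 (adjusted p = 0.120). DESeq2 called 5 genes here (Lss, Cyp51, Srebf1, Scd1 and Scd2), 20% against 15.1% of all tested transcripts, and edgeR called 0 against 2.97%.

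Per kilobase of transcript, Scd2 had the highest mean level in the controls, at 946 normalised reads per kilobase (range 847 to 1104). Srebf2 (593), Insig1 (582), Idi1 (560) and Sqle (515) followed, and their ranges over the 4 controls overlapped, so their order is not resolved. At the low end stood Pmvk (92.9), Fdps (77.8) and Acly (10.8), each a gene with further RefSeq transcripts. The Pmvk and Fdps ranges overlapped too. The genes that fell included Scd2 at the top of this order and Fdps next to its foot. Of the 25 genes 10 exceeded 0.5 reads per base in some library, among them Scd1 and Scd2. The highest value among the 18873 transcripts with a known length was 2.12. Without transcripts above 0.5 reads per base, 4 of 15 tested genes fell by limma (Acat2, Fdps, Tm7sf2 and Dhcr7), against 6.90% of the 8555 transcripts left. Transcripts of unknown length were kept in that fit.

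Neighbouring lists of lipid metabolism had medians nearer to 0 or above 0. Of 12 tested further genes of sterol synthesis and SREBP control, 1 fell and none rose (median -0.04): Tmem97, a sterol-regulated membrane protein, at -0.61 ± 0.12 (SE, adjusted p = 0.0455, limma). In the isoprenoid branch 1 of 13 fell, Fntb, a subunit of the farnesyl transferase, at -0.98 ± 0.13 (adjusted p = 0.0352), and the median was -0.29. Of 20 genes for fatty acid elongation, desaturation, activation and NADPH supply, 2 fell, Fads2, a desaturase of polyunsaturated fatty acids (-0.77 ± 0.16, adjusted p = 0.0467), and Mcat of mitochondrial fatty acid synthesis (-0.63 ± 0.14, adjusted p = 0.0491). None of these lists held a gene that rose. Over all tested transcripts 7.48% were called lower, so the lower calls in these lists stood near the background.

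Of 13 genes of sterol uptake, esterification and export, 4 rose and 1 fell (median 0.58), against 6.4% and 7.48% of all tested transcripts. Npc1 and Npc2, which move cholesterol out of the lysosome, rose by 0.93 ± 0.14 and 0.58 ± 0.13 (SE, adjusted p = 0.0357 and 0.0490, limma). Lrp1, a lipoprotein receptor also present on macrophages, rose by 2.23 ± 0.45 (adjusted p = 0.0453). Ch25h makes 25-hydroxycholesterol, a suppressor of SREBP processing, and had 4.14, 5.81, 8.61 and 1.06 in the controls and 53.0, 226, 97.6 and 278 after OHT. Every Ch25h OHT value was above every control value (4.72 ± 0.70 on the log2(value + 1) scale, adjusted p = 0.0357, limma). The control values stood at few reads, and the MLL-AF9 control was the lowest entry of its library, so the size of this ratio is uncertain. Lrp8, a lipoprotein receptor family member, fell by 0.85 (adjusted p = 0.0359, limma). The summed count of the 16 genes of this list with a row ran from 7254 to 8638 in the controls and from 11023 to 22589 after OHT, beside the rise of macrophage genes given above, whose part in it was not tested. Of 16 fatty acid oxidation genes none passed the test by limma (median 0.10).

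**Figure D4:**
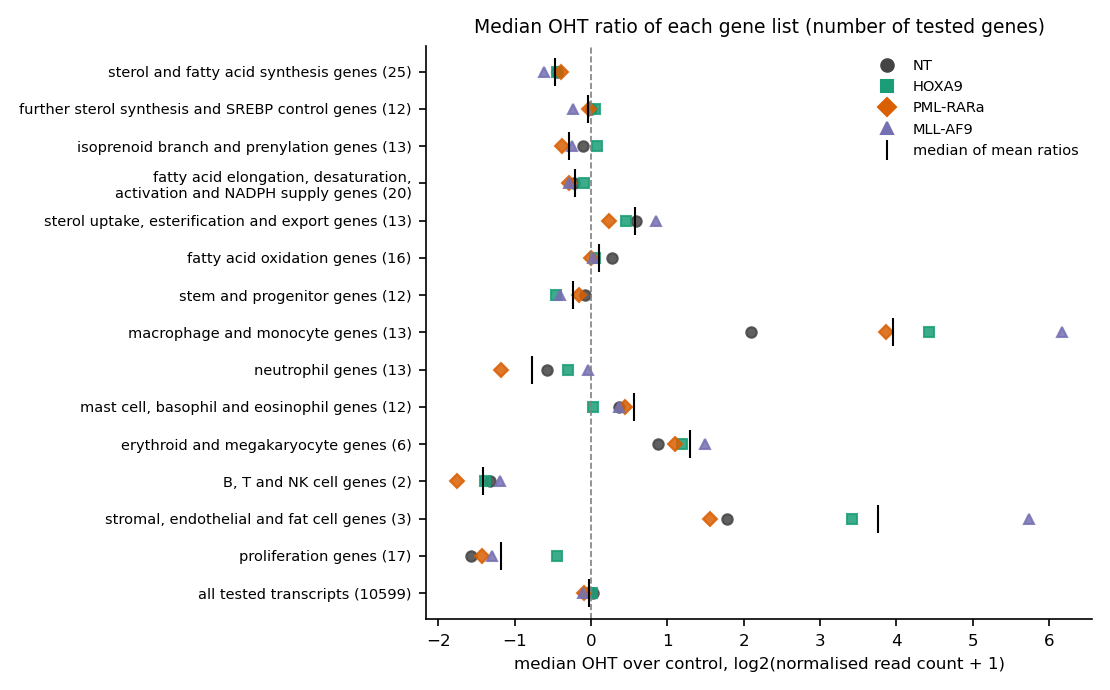
Median OHT over control difference of log2(normalised read count + 1) of each gene list, with the number of tested genes in brackets, the 4 contexts as symbols and the median of the mean ratios as a black tick. The synthesis genes lie at -0.48 and the 4 contexts between -0.62 and -0.40, the proliferation genes at -1.18, the sterol uptake and export genes at 0.58 and the macrophage genes at 3.95, while all tested transcripts lie at -0.03.

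The proliferation list had its median ratio nearest to 0 in HOXA9, at -0.45, and was -1.58 in NT, -1.30 in MLL-AF9 and -1.43 in PML-RARa. The median of the synthesis genes in HOXA9 was -0.44, beside -0.45 in NT, -0.40 in PML-RARa and -0.62 in MLL-AF9. With 1 pair per context, no test of these differences between lists was made.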

How the data were processed

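mRNA was measured in 8 libraries prepared with a TruSeq RNA kit, per the labels' protocols, and 1 table was deposited per context. Per the submitters' processing notes, TopHat, DESeq and the build mm9 were used; the counting tool, the annotation and whether duplicates were removed were not stated (not given in the sources used here). The signal used here is the authors' base mean of each library, per the file headers, which is its read count over its size factor. The authors' ratio, log2 fold change and p-value columns, as deposited, compare single libraries and were not used for any result.

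Dividing by the smallest entry of a library recovered whole reads for 100% of the values (tolerance 0.02), with totals of 4226751 to 6998223, and the recovered reads entered edgeR and DESeq2 as alternatives. From 15.1% to 20.0% of the entries of a library stood at its lowest value, counted here as 1 read. No library held an empty entry, and whether the lowest value stands for a read or for none was not stated. The recovered reads carry this limit. The members were matched by symbol (Msmo1 as Sc4mol), and the transcript with the highest mean stood for a gene. The test was limma 3.58.1 in R 4.3.3 on log2(value + 1), two-sided, over 10599 transcripts with a mean of at least 20, with Benjamini-Hochberg adjustment and a call under 0.05. Context was a block, since each context has 1 control and 1 OHT library; the pairing comes from the labelled context, not from replicate numbers. Fold changes on this scale understate the change of low genes. Whether libraries are separate cultures or animals is not stated, so p-values measure only the spread between these libraries. Alternatives were edgeR 4.0.16, DESeq2 1.42.0, a pseudocount of 10, no minimum, TMM scaling, centring, no densely read transcripts, no context block and leaving out each pair. The edgeR fits without a pair were added after seeing the data. The scripts were tested on simulated data. Every member could be named, and genes of other lists were named where they passed the test or had a high mean in their list; Kit was named outside this rule, after its value was seen. The members and lists were chosen with earlier results of these data known. Promoter windows are from RefSeq (GRCm38.p6), a later build than that of the tables, and were matched by symbol only.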

Additional observations from a re-analysis of the deposited data

How the results depend on the processing

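Across the 4 contexts, the count of members that fell (7 in the limma fit) was 9 with edgeR, 7 with a pseudocount of 10 and 5 with no context block, which is the fit without the pairing by context; the labels give no replicate numbers that could pair libraries otherwise. It was 13 with DESeq2, 2 without the minimum, 3 with TMM scaling, 3 with centring on the median transcript and 4 without densely read transcripts, where only 15 members were tested. Leaving out 1 pair gave from 0 to 0 with limma and from 0 to 2 with edgeR. The background of all transcripts called lower moved too, from 793 of 10599 in the limma fit to 959 with edgeR and 1362 with DESeq2. It was 891 with a pseudocount of 10, 610 with no context block, 726 with TMM scaling and 695 with centring. Without the minimum it was 147 of 19353, and without densely read transcripts 590 of 8555. With limma and 1 pair left out it was 2 without NT and 0 without any other pair. In the 3 transduced contexts the count of 0 became 2 with edgeR and 6 with DESeq2, and for levels between contexts the count of 0 became 5 with DESeq2. The cause of these moves was not tested, apart from the smaller number of members or pairs that some settings leave. The median log2 ratio of the members stayed between -0.65 and -0.38 over all 16 alternatives. The only member to change sign was Mvk, which did not pass the test in any setting and was at -0.01 without NT and -0.12 without PML-RARa; without 1 pair it ran from -0.12 to 0.11 with limma and from -0.09 to 0.18 with edgeR. TMM scaling moved the median of all transcripts by 0.08 and centring by 0.10, under which the direction of the 7 genes that fell was as in the limma fit. The NT against transduced difference has no value without NT. Acly, Fdps and Pmvk rest on the fewest reads.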

Other observations

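Some members overlap another gene in the annotation by their start and end positions. Whether their exons overlap was not checked. The library kit does not mark the strand, so any reads from a shared exon cannot be assigned to either gene. Ctsb, which overlaps Fdft1, rose by 1.12 ± 0.15 (SE, adjusted p = 0.0352, limma), in the direction opposite to the mean ratio of Fdft1. Tada2a, which overlaps Acaca, fell by 0.75 (adjusted p = 0.0443, limma) and had 410, 285, 295 and 472 in the controls and 255, 217, 162 and 224 after OHT in the order NT, HOXA9, PML-RARa and MLL-AF9. Vps51, which overlaps Tm7sf2, had -0.22 ± 0.15 (adjusted p = 0.342) and did not pass the test. The part of these overlaps in the members' values was not tested.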
